A study of Mus musculus with 6 samples.

Results

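The genes described here are 39 regulators of DNA methylation and chromatin: 4 DNA methyltransferases, 3 TET dioxygenases, 5 genes of Polycomb repressive complex 2 (PRC2), 4 of Polycomb repressive complex 1 (PRC1), 4 class I and 7 class II and IV histone deacetylases, 2 sirtuins, 5 nucleosome remodellers, 2 histone lysine demethylases and 3 arginine methyltransferases. They are a list of names grouped by known function, drawn up with earlier results of these data known, with no threshold on an expression value, and all 39 were among the 19938 mouse genes measured. The study derived oligodendrocytes from mouse epiblast stem cells (EpiSCs), pluripotent cells with the character of the early embryo after implantation. It hybridised 6 RNA samples of strain 129, each to 1 Affymetrix array that reads whole transcripts. No cell carried an allele or transgene that the labels mention.

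The EpiSC sample (1 array) was undifferentiated. The rosette sample (1 array) was a culture of patterned neural rosettes, labelled ventral neural tube, taken at day 5 of treatment with SB431542, Dorsomorphin, Noggin, RA and SHH. Oligodendrocyte progenitor cells (OPCs, 2 arrays, passages 11 and 3) came from dissociated rosettes and were grown in N2B27 medium with FGF2, PDGF-AA and SHH. Oligodendrocytes (2 arrays, made from OPCs of passages 11 and 3) were obtained by adding thyroid hormone and withdrawing FGF2 and PDGF-AA. All groups therefore descend from EpiSCs of 1 strain. The labels do not say whether the samples of a group were separate cultures beyond their passage. The p-values therefore speak only for the spread among these samples. Within OPCs and within oligodendrocytes that spread is the difference between passages 11 and 3, part of which may be technical.

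Values are log2 expression values, on which a difference of 1 is a 2-fold difference. The median over all genes and arrays was 9.005. No detection calls were used, so a value well below that median can be background, and 31 of the 39 genes lay above it on all 6 arrays. The labelled cell types carried their markers: 4 pluripotency markers averaged 13.24 in EpiSCs and 7.79 to 8.28 on the other 5 arrays, 5 OPC markers averaged 12.12 and 11.97 in OPCs of passages 11 and 3 against 8.66 in the rosette, and 5 oligodendrocyte markers averaged 12.54 and 12.20 in oligodendrocytes of passages 11 and 3 against 8.59 and 8.46 in OPCs. The 5 OPC markers stayed near their OPC level in oligodendrocytes, at 11.83 and 11.69 in passages 11 and 3, and none was called between these groups. The rosette also held neuronal RNA, with 6 neuron markers averaging 12.24 there. In such bulk samples, fewer cells of a type and less RNA per cell cannot be told apart.

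Chromatin regulators set which genes a cell can use. DNA methyltransferases add methyl groups to cytosines in CG pairs, and TET enzymes oxidise those groups, which leads to their removal. PRC2 places a repressive methyl mark on histone H3, PRC1 reads it and compacts chromatin, deacetylases remove acetyl groups from histones and other proteins, and remodelling ATPases move nucleosomes. In the oligodendrocyte lineage, deacetylase and remodelling activities are known to be needed for progenitors to leave the cell cycle and turn on myelin genes.

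Most of the calls among the 39 genes lay between pluripotent cells and their neural descendants. At least 2-fold differences separated the rosette from EpiSCs in 9 of the 39 genes (23.1%, against 10.6% of all genes). Higher in the rosette were Bmi1, Hdac9, Prmt8, Tet2 and Tet3 (5 genes, 12.8%, against 6.91% of all genes), and lower were Cbx7, Dnmt3b, Dnmt3l and Tet1 (4 genes, 10.3%, against 3.69%). With 1 array on each side these are differences between 2 samples, and no test was run on them. In OPCs, 8 genes fell against EpiSCs (Dnmt3b, Dnmt3l, Dnmt3a, Cbx7, Ezh1, Hdac6, Tet1 and Jarid2) and 2 rose (Smarca2 and Bmi1) at a limma adjusted p under 0.05, adjusted over all genes. These 10 genes are 25.6% of the 39, against 7.01% of all genes called. By direction they are 20.5% lower against 2.93% of all genes, and 5.13% higher against 4.07%. At an unadjusted p under 0.05 there were 21 members (53.8%, against 20.5% of all genes). Most members are brighter than the median gene. Without genes below the median of all genes on every array, 8 members had an adjusted p under 0.05 (21.1%, against 9.77% of the genes left). The later steps brought fewer calls. Against the rosette, Prmt8 and Ezh1 fell in OPCs (5.13%, against 3.13% of all genes called and 1.87% called lower) and no member rose (against 1.26% called higher). At an unadjusted p under 0.05 there were 11 members (28.2%, against 15.4% of all genes). Sirt2 alone rose in oligodendrocytes against OPCs (2.56%, against 0.446% called and 0.396% called higher). Between passages no member was called, nor was any of the 19938 genes (0%). In the 3 tested comparisons between cell types the SE mixed a gene's own spread within the OPC and oligodendrocyte pairs with that estimated over all genes. Each pair holds 1 array of passage 11 and 1 of passage 3, so the spread within pairs is a difference between passages. The lone EpiSC and rosette arrays were assumed to share it. The comparisons with EpiSCs and with the rosette use the same OPC arrays.

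**Figure D1:**
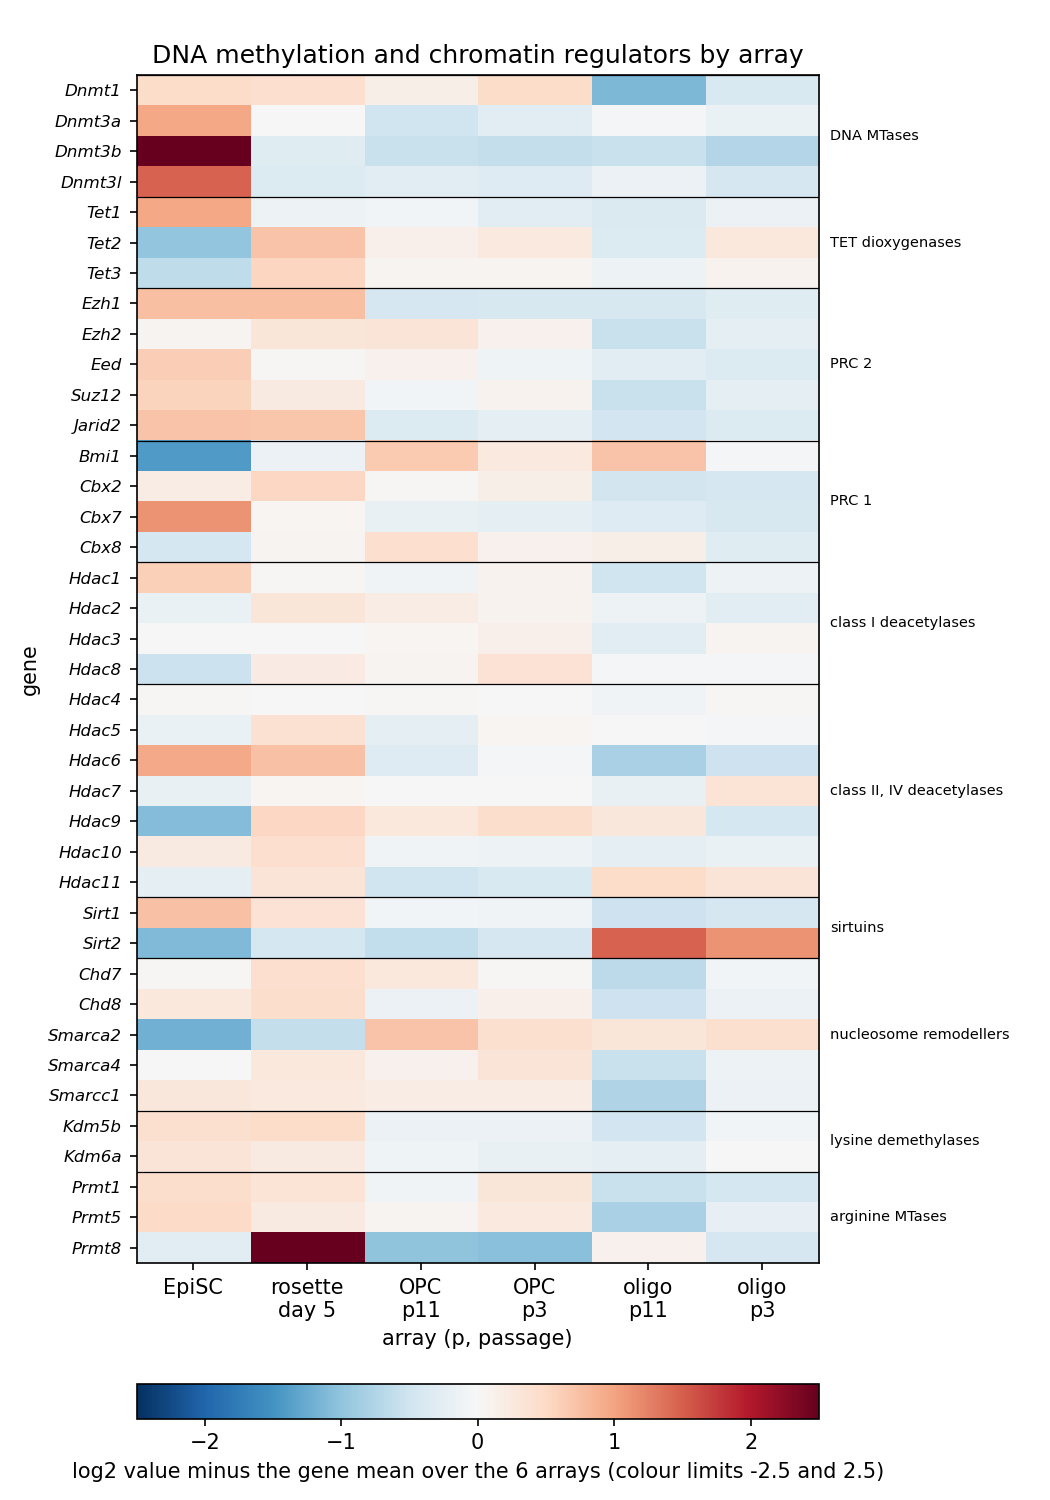
Heat map of the 39 regulators (rows, grouped by role) on the 6 arrays (columns; p, passage). Colour is the log2 value minus the gene's mean over the 6 arrays. EpiSCs hold the highest value of 16 genes and the oligodendrocyte arrays hold the lowest value of 25, while the rosette holds the lowest value of none.

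Across the 6 arrays, the median distance between a gene's highest and lowest value was 1.09 for the 39 regulators and 0.60 for all genes. Of the 39, 37 had a mean above the median of all genes, so dim genes weigh more among all genes. The distance was not compared with that of equally bright genes. Among the 39 it spanned 0.11 for Hdac4, a class IIa deacetylase, to 3.69 for Prmt8. Hdac4 was flat only on the brighter of its 2 array transcripts, the one used here. On the other, oligodendrocytes of passage 11 differed from EpiSCs by -0.52. EpiSCs held the highest value of 16 regulators, the rosette of 11, OPCs of 7 and oligodendrocytes of 5. Of all genes, 26.1% were highest in EpiSCs, 19.6% in the rosette, 19.1% in OPCs and 35.1% in oligodendrocytes. Oligodendrocytes held the lowest value of 25 regulators, EpiSCs of 9, OPCs of 5 and the rosette of none. For the lowest value the shares of all genes were 35.9% in oligodendrocytes, 18.6% in EpiSCs, 22.0% in OPCs and 23.5% in the rosette, so the 2 oligodendrocyte arrays hold the lowest value most often in any case. The 15 regulators not given on every array below spanned 0.11 to 1.26, with a median of 0.90. Every called member is given on every array, so these 15 hold no called member by that choice.

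The de novo DNA methyltransferases and their cofactor were highest in EpiSCs, to differing degrees. Dnmt3b, the form typical of the epiblast, stood at 11.88 in EpiSCs, 8.85 in the rosette, 8.60 and 8.55 in OPCs of passages 11 and 3, and 8.59 and 8.42 in oligodendrocytes of passages 11 and 3. EpiSCs were high and the other 5 arrays lay together, below the median of all genes. The rosette was 8.22-fold lower than EpiSCs, and in OPCs Dnmt3b fell by 3.31 (SE 0.18, adjusted p = 0.00218), a 9.94-fold difference. Dnmt3l, a cofactor with no catalytic activity of its own that stimulates the de novo enzymes, had 8.94 in EpiSCs, 7.14 in the rosette, 7.21 and 7.15 in OPCs of passages 11 and 3, and 7.33 and 7.06 in oligodendrocytes of passages 11 and 3. It was dim on every array, so its fall in OPCs against EpiSCs of 1.76 (SE 0.19, adjusted p = 0.00969) may be compressed. Dnmt3a, the de novo enzyme that persists in neural cells, had a smaller difference: 11.52 in EpiSCs, 10.56 in the rosette, 10.05 and 10.28 in OPCs of passages 11 and 3, and 10.53 and 10.39 in oligodendrocytes of passages 11 and 3. It fell by 1.36 in OPCs against EpiSCs (SE 0.19, adjusted p = 0.0197). Both oligodendrocyte arrays lay above both OPC arrays for Dnmt3a, with a difference of 0.29 (SE 0.16) that did not pass the test (adjusted p = 0.576). Dnmt1, which copies methylation onto newly replicated DNA, had another profile. Its values were 11.74 in EpiSCs, 11.70 in the rosette, 11.43 and 11.74 in OPCs of passages 11 and 3, and 10.16 and 10.90 in oligodendrocytes of passages 11 and 3. The first 4 arrays lay within 0.32 of each other and both oligodendrocyte arrays lay below them. The oligodendrocyte difference from OPCs was -1.05 (SE 0.28) and did not pass the test (adjusted p = 0.242).

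The promoter of Dnmt3b is shown because this gene had the largest fall from EpiSCs to OPCs. It is the RefSeq window of 300 bases (250 before to 50 after the start) on GRCm38.p6 at chr2:153649199-153649498, plus strand, written 5′ to 3′ with each CG pair, the methyltransferases' own substrate, in capitals.
Dnmt3b: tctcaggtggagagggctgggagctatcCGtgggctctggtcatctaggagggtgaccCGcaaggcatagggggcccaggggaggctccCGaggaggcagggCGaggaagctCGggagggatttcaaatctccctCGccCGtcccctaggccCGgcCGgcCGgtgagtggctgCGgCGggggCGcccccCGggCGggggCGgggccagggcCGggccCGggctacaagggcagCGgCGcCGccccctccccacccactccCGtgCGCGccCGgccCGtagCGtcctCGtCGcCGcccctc
It holds 30 CG pairs. The first of the 3 Dnmt3l windows (chr10:78042037-78042336, plus strand) is shown beside it because the cofactor was likewise highest in EpiSCs and its window holds fewer CG pairs.
Dnmt3l: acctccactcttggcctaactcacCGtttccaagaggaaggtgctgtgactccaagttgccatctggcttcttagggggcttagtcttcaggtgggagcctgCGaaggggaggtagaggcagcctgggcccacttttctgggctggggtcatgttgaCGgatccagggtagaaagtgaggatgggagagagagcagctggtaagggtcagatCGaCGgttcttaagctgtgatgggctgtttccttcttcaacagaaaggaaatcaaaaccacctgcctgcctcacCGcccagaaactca
It holds 6, and the other Dnmt3l windows hold 4 and 3. Over all 32851 windows the median was 7 CG pairs (quartiles 3 and 20), and over the 46 windows found for 34 of the 39 genes it was 23. Methylation itself was not measured on these arrays.

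TET genes did not move as a family. Tet1, the TET enzyme of pluripotent cells, stood at 12.14 in EpiSCs, 11.05 in the rosette, 11.11 and 10.92 in OPCs of passages 11 and 3, and 10.82 and 11.04 in oligodendrocytes of passages 11 and 3. It fell by 1.12 in OPCs against EpiSCs (SE 0.19, adjusted p = 0.0343). All 3 array transcripts of Tet1 were lower in the rosette than in EpiSCs, with differences between -1.30 and -1.09. Tet2 went the other way, at 9.10 in EpiSCs, 10.80 in the rosette, 10.22 and 10.34 in OPCs of passages 11 and 3, and 9.75 and 10.36 in oligodendrocytes of passages 11 and 3. Its EpiSC value was the lowest of the 6 and its rosette value the highest, 3.25-fold apart. The OPC difference from EpiSCs, 1.18 (SE 0.28), missed the threshold (adjusted p = 0.0793) and passed it once passage was a block (adjusted p = 0.0385). Tet3, the third TET enzyme, had 9.03 in EpiSCs, 10.21 in the rosette, 9.75 and 9.75 in OPCs of passages 11 and 3, and 9.55 and 9.76 in oligodendrocytes of passages 11 and 3. EpiSCs were again lowest and the rosette highest, 2.26-fold apart. The OPC difference from EpiSCs was 0.72 (SE 0.18, adjusted p = 0.0878), and with the mean of the 2 array transcripts of Tet3 it was 0.94 and passed (adjusted p = 0.0409).

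**Figure D2:**
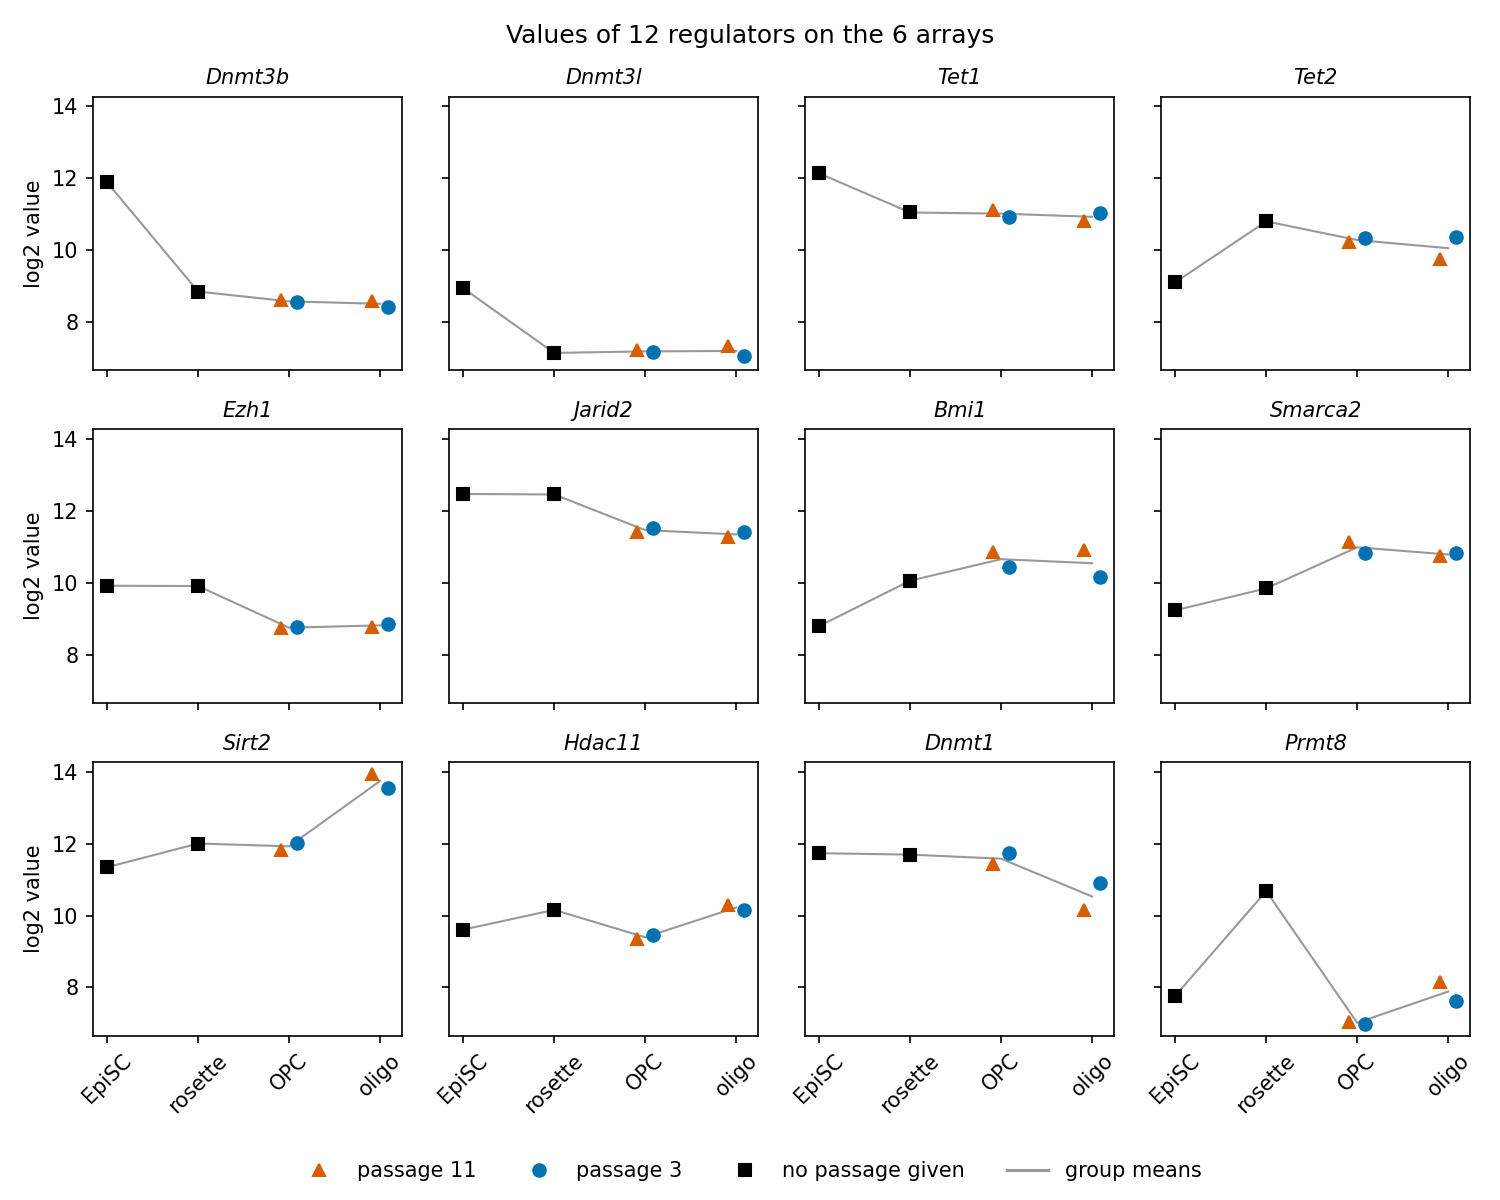
Log2 values of 12 regulators in EpiSCs, the rosette, OPCs and oligodendrocytes, with a grey line through the group means; triangles are passage 11, circles passage 3 and squares arrays with no passage. Dnmt3b, Dnmt3l and Tet1 are highest in EpiSCs, while Tet2 and Bmi1 are lowest there. Ezh1 and Jarid2 are lower from the OPC stage on, Prmt8 peaks in the rosette and Sirt2 in oligodendrocytes.

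Within PRC2, the catalytic pair split. Ezh1, the methyltransferase subunit that is typical of cells that divide little, stood at 9.92 in EpiSCs, 9.91 in the rosette, 8.73 and 8.77 in OPCs of passages 11 and 3, and 8.77 and 8.87 in oligodendrocytes of passages 11 and 3. EpiSCs and the rosette were level, and all 4 later arrays lay about 1 unit lower, just under the median of all genes. In OPCs, Ezh1 fell by 1.16 against the rosette (SE 0.17, adjusted p = 0.0331) and by 1.17 against EpiSCs (adjusted p = 0.0204). Ezh2, the subunit typical of dividing cells, had 12.77 in EpiSCs, 13.002 in the rosette, 13.01 and 12.80 in OPCs of passages 11 and 3, and 12.14 and 12.47 in oligodendrocytes of passages 11 and 3. It was bright throughout, and both oligodendrocyte arrays lay below the other 4. The oligodendrocyte difference from OPCs, -0.60 (SE 0.18), did not pass the test (adjusted p = 0.278). Jarid2, an accessory subunit that helps bring PRC2 to its targets, had 12.48 in EpiSCs, 12.46 in the rosette, 11.42 and 11.52 in OPCs of passages 11 and 3, and 11.28 and 11.41 in oligodendrocytes of passages 11 and 3. The step lay between the rosette and OPCs, as for Ezh1. Jarid2 fell by 1.01 in OPCs against EpiSCs (SE 0.17, adjusted p = 0.0332). Against the rosette the difference was -0.99 (SE 0.17, adjusted p = 0.0542) and passed once passage was a block (adjusted p = 0.0360). The core subunits Eed and Suz12 were highest in EpiSCs, at 10.76 for Eed and 11.73 for Suz12. Their OPC differences from EpiSCs were -0.62 (SE 0.18, adjusted p = 0.131) for Eed and -0.54 (SE 0.21, adjusted p = 0.240) for Suz12, and neither passed.

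PRC1 genes also went different ways. Bmi1, a partner of the RING ubiquitin ligases of PRC1 and known for stem cell self-renewal, had 8.80 in EpiSCs, 10.06 in the rosette, 10.87 and 10.45 in OPCs of passages 11 and 3, and 10.92 and 10.17 in oligodendrocytes of passages 11 and 3. EpiSCs were lowest and passage 11 was above passage 3 in both cell types. Bmi1 rose by 1.86 in OPCs against EpiSCs (SE 0.36, adjusted p = 0.0454), a 3.64-fold difference, and missed the threshold with quantile normalisation added (adjusted p = 0.0823). Cbx7, a chromobox reader of the Polycomb mark that is the main one in pluripotent cells, had 10.62 in EpiSCs, 9.54 in the rosette, 9.31 and 9.25 in OPCs of passages 11 and 3, and 9.17 and 9.09 in oligodendrocytes of passages 11 and 3. It fell by 1.34 in OPCs against EpiSCs (SE 0.17, adjusted p = 0.0139). The alternative chromobox readers did not pass in any comparison: Cbx2 differed by -0.10 (SE 0.17) and Cbx8 by 0.71 (SE 0.26) between OPCs and EpiSCs, with adjusted p = 0.888 for Cbx2 and 0.210 for Cbx8.

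**Figure D3:**
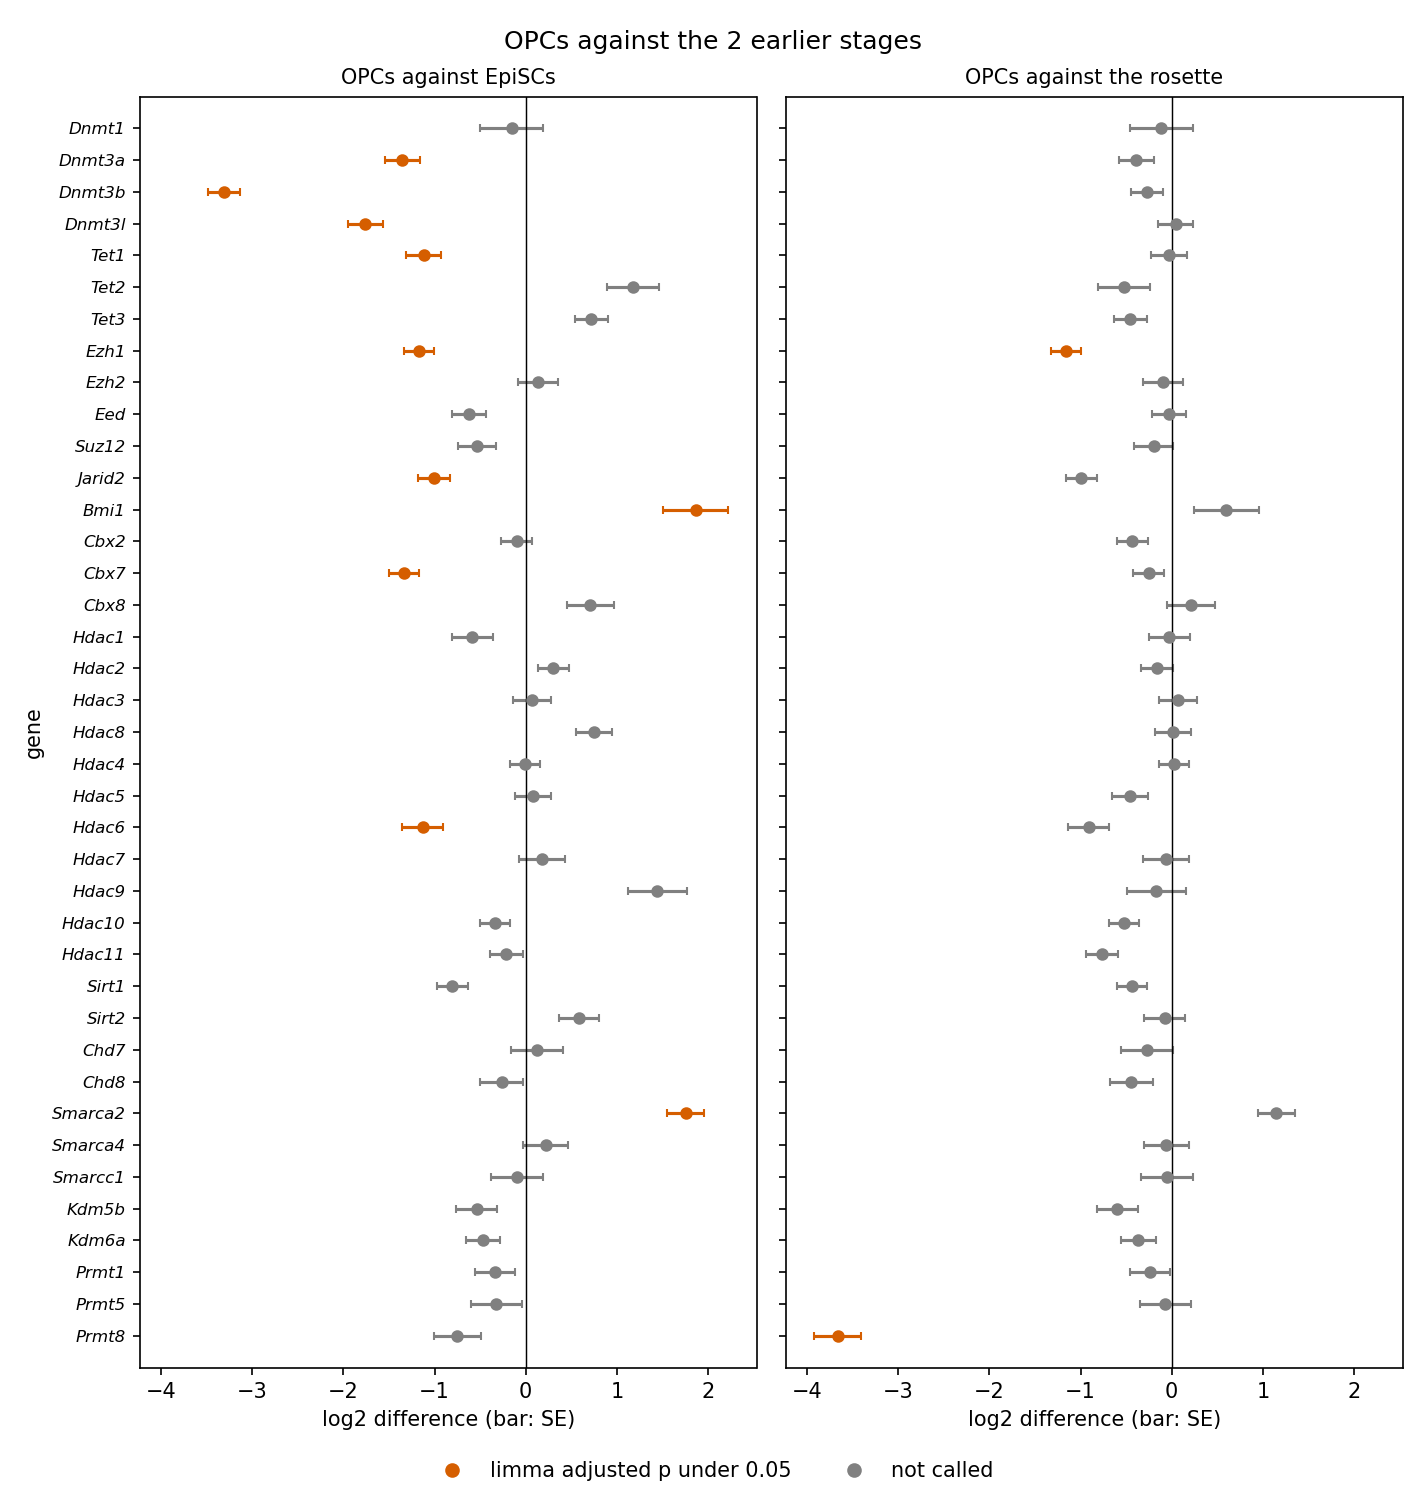
Log2 difference of each of the 39 regulators, OPCs minus EpiSCs (left) and OPCs minus the rosette (right), with bars of 1 SE from limma; orange marks an adjusted p under 0.05. The left side shows 8 falls and 2 rises, the right side the falls of Prmt8 and Ezh1; both sides use the same OPC arrays.

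No class I deacetylase, the family of nuclear enzymes that serve corepressor complexes, passed the test in any comparison. Hdac1 had 12.82 in EpiSCs, 12.26 in the rosette, 12.14 and 12.32 in OPCs of passages 11 and 3, and 11.72 and 12.11 in oligodendrocytes of passages 11 and 3. Hdac2 had 12.07 in EpiSCs, 12.54 in the rosette, 12.42 and 12.32 in OPCs of passages 11 and 3, and 12.11 and 11.96 in oligodendrocytes of passages 11 and 3. For both genes, each oligodendrocyte array lay below both OPC arrays, by mean differences of -0.32 (SE 0.18) for Hdac1 and -0.34 (SE 0.14) for Hdac2, and neither passed (adjusted p = 0.617 for Hdac1 and 0.443 for Hdac2). Hdac3, another nuclear enzyme of this class, spanned 0.39 over the 6 arrays. Hdac8 was lowest in EpiSCs (8.65), and its OPC difference from them was 0.75 (SE 0.20, adjusted p = 0.0982).

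Among class II and IV deacetylases, Hdac6 fell and Hdac9 and Hdac11 were the other variable genes. Hdac6, a cytoplasmic enzyme that deacetylates tubulin, had 11.33 in EpiSCs, 11.10 in the rosette, 10.05 and 10.34 in OPCs of passages 11 and 3, and 9.57 and 9.87 in oligodendrocytes of passages 11 and 3. Each later stage lay below the one before it without overlap. It fell by 1.13 in OPCs against EpiSCs (SE 0.22, adjusted p = 0.0482), a call that was lost without dim genes (adjusted p = 0.0534) and with an intensity trend (adjusted p = 0.0651). Against the rosette it differed by -0.91 (adjusted p = 0.125, or 0.0424 once passage was a block). Hdac9, a class IIa enzyme that acts mainly as a corepressor scaffold, had 8.64 in EpiSCs, 10.25 in the rosette, 9.99 and 10.18 in OPCs of passages 11 and 3, and 10.01 and 9.30 in oligodendrocytes of passages 11 and 3. The rosette was 3.06-fold above EpiSCs, the OPC difference from EpiSCs of 1.44 did not pass (SE 0.32, adjusted p = 0.0652), and the oligodendrocyte arrays were far apart. Hdac11, the class IV enzyme, had 9.61 in EpiSCs, 10.16 in the rosette, 9.34 and 9.46 in OPCs of passages 11 and 3, and 10.30 and 10.15 in oligodendrocytes of passages 11 and 3. Both oligodendrocyte arrays lay above both OPC arrays, with a difference of 0.83 (SE 0.14) that did not pass (adjusted p = 0.126).

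Sirt2, an NAD-dependent deacetylase of tubulin that is abundant in myelinating cells, was the regulator that rose in oligodendrocytes. Its values were 11.35 in EpiSCs, 12.01 in the rosette, 11.84 and 12.02 in OPCs of passages 11 and 3, and 13.93 and 13.57 in oligodendrocytes of passages 11 and 3. Both oligodendrocyte arrays lay well above all others, by 2.09 over OPCs at passage 11 and 1.54 at passage 3. Sirt2 rose by 1.82 in oligodendrocytes against OPCs (SE 0.18, adjusted p = 0.0407), a 3.53-fold difference, and was the single member at least 2-fold apart at both passages (2.56% of the members, against 1.51% of all genes). The call was narrow. It was lost with passage as a block (adjusted p = 0.0546), with quantile normalisation added (0.0707), without dim genes (0.0529), without the OPC array of passage 3 (0.181) and without that of passage 11 (0.244), while the difference stayed between 1.64 and 2.001. The mean of 4 astrocyte markers was also higher in these samples. It was 10.20 and 10.74 in oligodendrocytes of passages 11 and 3 against 9.73 and 9.94 in OPCs. All 4 were higher at passage 11, but at passage 3 only 2 were higher and 2 were lower. The mean of 3 fibroblast markers was 9.40 and 9.78 in oligodendrocytes of passages 11 and 3 against 8.91 and 9.16 in OPCs. No marker of either list was called in oligodendrocytes against OPCs, and their part in the result was not tested. Sirt1, the nuclear sirtuin, had its highest value in EpiSCs (10.87) and its lowest in oligodendrocytes of passage 11 (9.61). Its OPC difference from EpiSCs was -0.80 (SE 0.17, adjusted p = 0.0547).

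The Sirt2 promoter window (GRCm38.p6, chr7:28766502-28766801, plus strand, RefSeq) is shown because Sirt2 was the one regulator called in oligodendrocytes. CG pairs are in capitals.
Sirt2: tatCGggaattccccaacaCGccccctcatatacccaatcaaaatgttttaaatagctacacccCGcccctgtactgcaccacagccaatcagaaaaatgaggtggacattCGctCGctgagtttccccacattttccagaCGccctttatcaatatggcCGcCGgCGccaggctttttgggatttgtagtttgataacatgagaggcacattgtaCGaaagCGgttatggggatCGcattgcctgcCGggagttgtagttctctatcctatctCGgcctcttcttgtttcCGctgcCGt
It holds 16 CG pairs, between the median and the upper quartile of all windows.

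The BAF remodelling complex carries one of a pair of ATPases, and these behaved differently. Smarca2 had 9.24 in EpiSCs, 9.85 in the rosette, 11.15 and 10.83 in OPCs of passages 11 and 3, and 10.74 and 10.84 in oligodendrocytes of passages 11 and 3. All 4 OPC and oligodendrocyte arrays were above the rosette, which was above EpiSCs. It rose by 1.75 in OPCs against EpiSCs (SE 0.20, adjusted p = 0.0115), a 3.37-fold difference. Against the rosette the difference of 1.14 (SE 0.20) missed the threshold (adjusted p = 0.0574, or 0.0481 once passage was a block). Smarca4, the ATPase typical of pluripotent and progenitor cells, had 11.84 in EpiSCs, 12.12 in the rosette, 11.95 and 12.16 in OPCs of passages 11 and 3, and 11.28 and 11.73 in oligodendrocytes of passages 11 and 3. Its OPC difference from EpiSCs was 0.22 (SE 0.25, adjusted p = 0.784). The scaffold subunit Smarcc1 was at 11.89 and 11.90 in OPCs of passages 11 and 3 and 10.95 and 11.57 in oligodendrocytes of passages 11 and 3. Neither Smarca4 nor Smarcc1 passed in oligodendrocytes against OPCs, with differences of -0.55 (SE 0.20, adjusted p = 0.362) for Smarca4 and -0.64 (SE 0.23, adjusted p = 0.364) for Smarcc1.

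Chd7 and Chd8, ATPases of the CHD family with known roles in oligodendrocyte development, were highest in the rosette. Chd7 had 11.48 in EpiSCs, 11.87 in the rosette, 11.71 and 11.48 in OPCs of passages 11 and 3, and 10.80 and 11.38 in oligodendrocytes of passages 11 and 3. Chd8 had 11.04 in EpiSCs, 11.21 in the rosette, 10.64 and 10.91 in OPCs of passages 11 and 3, and 10.27 and 10.63 in oligodendrocytes of passages 11 and 3. Both lay lower in both oligodendrocyte arrays than in both OPC arrays, by -0.51 (SE 0.23, adjusted p = 0.491) for Chd7 and -0.32 (SE 0.19, adjusted p = 0.625) for Chd8. Chd7 was read by 30 array transcripts, of which the brightest gave these values. All 30 were higher in the rosette than in EpiSCs, by 0.32 to 0.84 (median 0.57). All 30 were lower in oligodendrocytes than in OPCs at passage 11, by a median of -0.50, and at passage 3, by a median of -0.30, and in 27 of 30 both oligodendrocyte arrays lay below both OPC arrays. They disagreed on passage in OPCs, where 11 were higher and 19 lower at passage 11. The transcripts share the same 6 arrays and are not replicates.

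**Figure D4:**
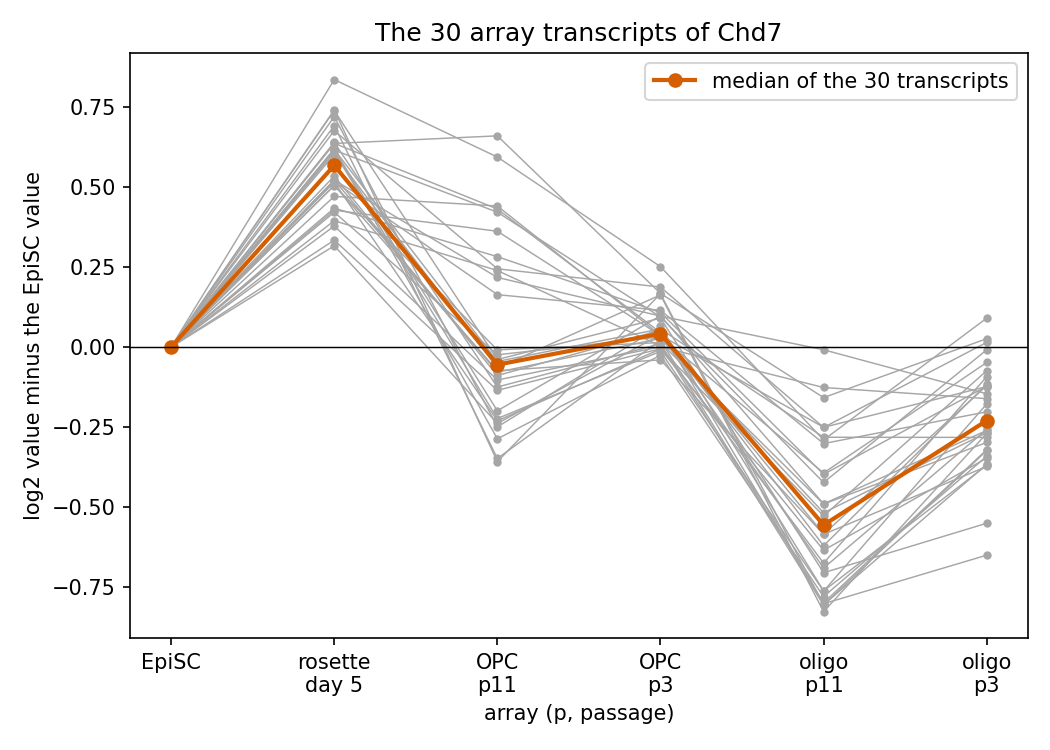
Log2 values of the 30 array transcripts of Chd7 minus each transcript's EpiSC value (grey lines) and their median (orange) on the 6 arrays (p, passage). All grey points lie above 0 in the rosette, with a median of 0.57, and the median is -0.56 in oligodendrocytes of passage 11 and -0.23 in those of passage 3.

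Prmt8, a membrane-bound arginine methyltransferase largely restricted to the brain, marked the rosette. It had 7.77 in EpiSCs, 10.68 in the rosette, 7.04 and 6.995 in OPCs of passages 11 and 3, and 8.15 and 7.62 in oligodendrocytes of passages 11 and 3. The rosette was the single array above the median of all genes. It fell by 3.66 in OPCs against the rosette (SE 0.26, adjusted p = 0.00616), a 12.7-fold difference that, with 5 of the 6 arrays dim, may be compressed. Neuron markers moved with it: 3 and 4 of 6 lay above the median of all genes in OPCs of passages 11 and 3 against 6 in the rosette, and their mean was 9.44 and 9.87 in OPCs of passages 11 and 3 against 12.24 in the rosette. The mean of 3 neuroepithelial markers was also lower, at 9.22 and 9.09 in OPCs of passages 11 and 3 against 10.93 in the rosette. The part of these 2 marker lists in the result was not tested. Prmt5, the main symmetric arginine methyltransferase, had 13.14 in EpiSCs, 12.89 in the rosette, 12.73 and 12.91 in OPCs of passages 11 and 3, and 11.86 and 12.46 in oligodendrocytes of passages 11 and 3. It was bright and lowest in oligodendrocytes, with a difference from OPCs of -0.66 (SE 0.23, adjusted p = 0.349). Prmt1, the main asymmetric enzyme, differed by -0.61 (SE 0.18, adjusted p = 0.276). The demethylases Kdm5b, which acts on the active mark at promoters, and Kdm6a, which removes the Polycomb mark, passed in no comparison, and spanned 0.94 (Kdm5b) and 0.57 (Kdm6a) over the 6 arrays.

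The Prmt8 promoter window (GRCm38.p6, chr6:127769106-127769405, minus strand, RefSeq) is shown because this gene had the largest difference of any regulator in the tested comparisons. CG pairs are in capitals.
Prmt8: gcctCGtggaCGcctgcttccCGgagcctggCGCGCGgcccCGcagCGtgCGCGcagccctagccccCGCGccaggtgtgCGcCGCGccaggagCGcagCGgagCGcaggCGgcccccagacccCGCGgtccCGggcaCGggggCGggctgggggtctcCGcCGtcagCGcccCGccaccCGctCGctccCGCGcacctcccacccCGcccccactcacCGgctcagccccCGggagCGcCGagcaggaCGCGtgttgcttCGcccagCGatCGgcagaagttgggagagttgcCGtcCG
It holds 44 CG pairs, above the upper quartile of all windows.

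Oligodendrocytes had lower values than OPCs for many regulators at once, although none passed the test downward (0 of 39, against 0.0502% of all genes called lower). At an unadjusted p under 0.05 there were 12 members in either direction (30.8%, against 12.3% of all genes). Lower values were seen for 30 of 39 regulators at passage 11 (76.9%, against 49.0% of all genes) and 26 of 39 at passage 3 (66.7%, against 52.8%). Both oligodendrocyte arrays lay below both OPC arrays for 19 of 39 (48.7%, against 21.1% of all genes, and 31.5% of genes with a mean above the median). These 19 were Dnmt1, the PRC2 genes Ezh2, Eed, Suz12 and Jarid2, Cbx2 and Cbx7, the deacetylases Hdac1, Hdac2, Hdac6, Hdac8 and Hdac10, Sirt1, the remodellers Chd7, Chd8, Smarca4 and Smarcc1, and Prmt1 and Prmt5. Both lay above for 4 (Sirt2, Hdac11, Prmt8 and Dnmt3a; 10.3%, against 19.0%). The pattern was not particular to the 39: among 144 other chromatin genes, 68 (47.2%) had both oligodendrocyte arrays below both OPC arrays. Cell cycle genes moved with it. Their mean over 9 genes was 10.73 and 11.51 in oligodendrocytes of passages 11 and 3 against 12.14 and 12.25 in OPCs, and their part in the result was not tested.

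**Figure D5:**
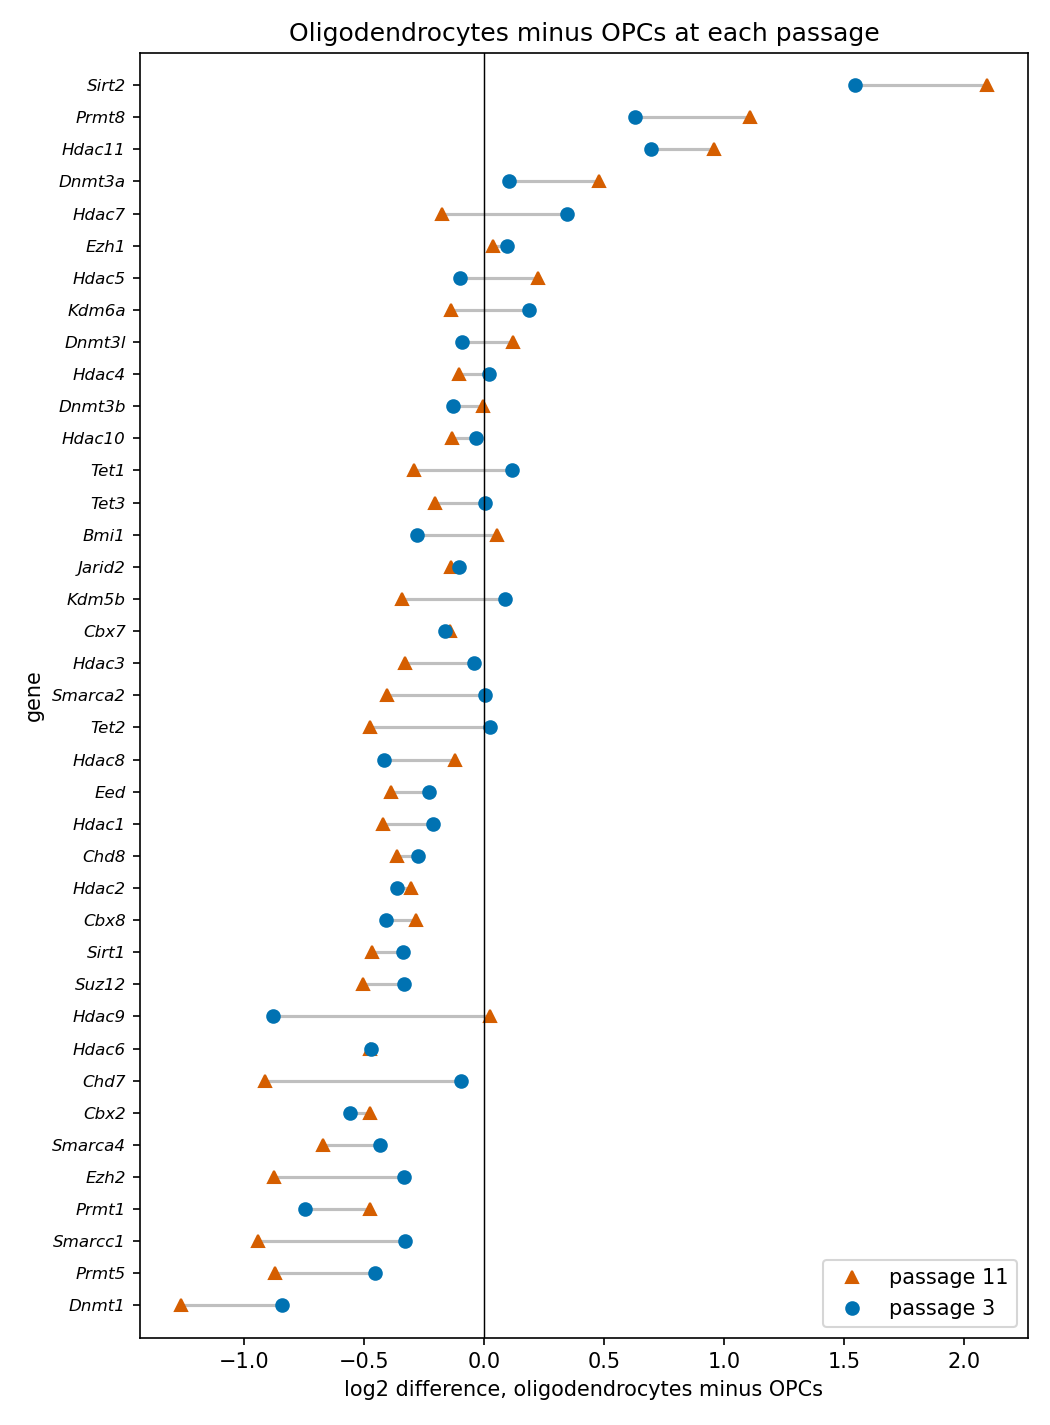
Log2 difference, oligodendrocytes minus OPCs, of each of the 39 regulators at passage 11 (triangles) and passage 3 (circles), ordered by the mean. Values lie below 0 for 30 regulators at passage 11 and 26 at passage 3, and Sirt2 stands apart at 2.09 and 1.54.

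Promoters of Dnmt1 and Ezh2 are shown because both genes belong to these 19 and are known targets of the E2F factors of the cell cycle, and because theirs were the only member windows with the E2F letters searched for, TTTCGCGC or TTTGGCGC on either strand (in capitals). The Dnmt1 window is the last of its 3 (GRCm38.p6, chr9:20952574-20952873, minus strand) and the Ezh2 window is at chr6:47594981-47595280, minus strand.
Dnmt1: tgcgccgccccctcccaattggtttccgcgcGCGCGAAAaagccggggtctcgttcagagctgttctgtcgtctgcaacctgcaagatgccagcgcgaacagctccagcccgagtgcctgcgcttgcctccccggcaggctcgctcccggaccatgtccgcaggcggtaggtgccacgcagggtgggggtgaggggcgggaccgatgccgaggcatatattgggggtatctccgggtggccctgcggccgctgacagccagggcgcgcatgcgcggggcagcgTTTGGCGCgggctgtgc
Ezh2: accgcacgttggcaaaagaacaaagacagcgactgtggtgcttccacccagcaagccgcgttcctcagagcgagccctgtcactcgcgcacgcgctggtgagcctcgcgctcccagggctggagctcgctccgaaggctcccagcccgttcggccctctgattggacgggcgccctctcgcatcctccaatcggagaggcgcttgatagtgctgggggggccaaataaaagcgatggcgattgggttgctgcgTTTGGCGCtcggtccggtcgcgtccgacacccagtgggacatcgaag
In Dnmt1 the letters GCGCGAAA, the reverse complement of TTTCGCGC, begin 219 bases before the start and TTTGGCGC begins 34 bases after it. In Ezh2, TTTGGCGC begins 4 bases after the start. Of the 46 member windows 2 (4.35%) held a match, and of all 32851 windows 267 (0.813%). These shares are not for like windows. The letters searched for hold CG pairs, and member windows had a median of 23 CG pairs against 7 in all windows. Some genes also have several windows. No share was taken over windows of similar CG content. A match describes letters and not binding.

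No regulator passed the test for passage. At passage 11, 16 of 39 were lower than at passage 3 in both cell types (41.0%, against 28.5% of all genes) and 8 were higher in both (20.5%, against 40.1%). At an unadjusted p under 0.05 there were 4 (Bmi1, Cbx8, Chd8 and Dnmt1; 10.3%, against 13.9% of all genes). Bmi1 had the largest difference, 0.58 (SE 0.14, adjusted p = 0.357), with passage 11 above passage 3 by 0.41 in OPCs and 0.75 in oligodendrocytes. Dnmt1 differed by -0.53 (SE 0.15, adjusted p = 0.357), with passage 11 below passage 3 in both cell types. In this fit a gene's own spread is how far OPCs and oligodendrocytes differed in their passage effect. The SE mixes it with a spread estimated over all genes (1 residual, 3.19 prior degrees of freedom).

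Few other genes of these pathways were called. A set of 9 lists held 152 such genes, of which 144 were analysed here. Against EpiSCs, OPCs had 5 of the 144 higher (3.47%, against 4.07% of all genes) and 4 lower (2.78%, against 2.93%), shares near those of all genes. The rises included 3 BAF subunits, Smarcc2 (1.36, SE 0.21, adjusted p = 0.0264), Smarcd3 (1.13, adjusted p = 0.0407) and Dpf3 (0.93, adjusted p = 0.0482), and the falls included the BAF subunit Smarcd2 (-1.42, adjusted p = 0.0153). Among 22 Polycomb genes, the PRC1 subunit Phc1 fell by 1.90 (SE 0.23, adjusted p = 0.0127), the PRC2 accessory Mtf2 fell by 1.12 (adjusted p = 0.0212), and Phc3 rose by 1.19 (adjusted p = 0.0364). The methyl-CG binding gene Mbd2 rose by 1.02 and the corepressor gene Rcor2 fell by 0.97. Against the rosette, 6 fell in OPCs (4.17%, against 1.87% of all genes) and 1 rose (0.694%, against 1.26%). Actl6b, the BAF subunit of neurons, fell by 2.46 (SE 0.17, adjusted p = 0.00616), the demethylase Kdm7a by 2.04 (SE 0.21), the remodeller Chd3 by 1.71 (SE 0.18), Rcor2 by 1.57, Mtf2 by 1.14 and the demethylase Kdm3a by 1.12, while Mbd2 rose by 1.02. In oligodendrocytes, 1 of 144 rose against OPCs (0.694%, against 0.396% of all genes) and none fell: Gadd45b, a stress-induced gene linked to DNA demethylation, rose by 2.09 (SE 0.14, adjusted p = 0.0233). It stood at 10.81 and 10.91 in oligodendrocytes of passages 11 and 3 against 8.76 and 8.78 in OPCs. The histone acetyltransferase, histone lysine methyltransferase and other arginine methyltransferase lists (9, 21 and 7 genes) had no call in any tested comparison. Of the calls in this paragraph, Actl6b alone held in all 10 alternative settings, some of which are the same fit. Each of the others was lost without 1 or both of the OPC arrays.

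Leaving out an OPC array ended most calls. Dnmt3b in OPCs against EpiSCs and Prmt8 in OPCs against the rosette were called in all 10 alternative settings. These settings are not 10 separate checks. In the comparisons with EpiSCs and the rosette, using the 2 groups alone or leaving out either oligodendrocyte array gives the same fit. There the spread comes from the OPC pair alone. In oligodendrocytes against OPCs, the 2 groups alone repeat the main fit. Over the 10 settings, the OPC difference from EpiSCs lay between -3.34 and -3.29 for Dnmt3b and between 1.60 and 1.91 for Smarca2. The highest adjusted p that the other called members reached lay between 0.0521 (Dnmt3l) and 0.236 (Hdac6), and Smarca2 reached 0.0581. Against the rosette Ezh1 was lost without either OPC array (0.180 without passage 3 and 0.228 without passage 11). Without either oligodendrocyte array the counts were larger, at 21 members against EpiSCs (53.8%, against 20.8% of all genes) and 7 against the rosette (17.9%, against 14.5%). In oligodendrocytes against OPCs, 11 members were called without the oligodendrocyte array of passage 3 (28.2%, against 14.6% of all genes) and 3 without that of passage 11 (7.69%, against 6.85%).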

How the data were processed

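RNA of 6 mouse samples was hybridised to Affymetrix arrays, starting from 150 ng of total RNA per the labels. The deposited values are on a log2 scale; the submitters' processing notes name RMA and Affymetrix Expression Console, and RMA adjusts the background, brings the arrays to 1 distribution and combines the probes of a transcript. No source used here gives a version. Of 35556 array transcripts, 21789 carried 1 gene symbol. Where a gene had several, the one with the highest mean was kept, giving 19938 genes. Transcripts with several or no symbols were left out.

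Differences were fitted over all genes with limma 3.58.1 in R 4.3.3 (two-sided, Benjamini-Hochberg over all genes), on all 6 arrays with 4 groups (2 residual, 3.32 prior degrees of freedom), and for passage on the 4 arrays of OPCs and oligodendrocytes, adjusted for the type (1 residual, 3.19 prior). The fits were run on simulated data with independent noise and the same spread on every array. This could not test whether the lone EpiSC and rosette arrays vary like the pairs, nor the effect of passage. The labels pair OPC and oligodendrocyte samples by passage, and the correlation of same-passage deviations was 0.50. Passage as a block, quantile normalisation, a filter on dim genes, an intensity trend, the mean of a gene's transcripts, the arrays of the groups compared alone and each array left out were alternatives. Called members, members at least 2-fold apart and 12 genes chosen for their known biology are given on every array, the others by counts and ranges. In the other lists, up to 3 called genes per list and direction are named. The members and lists were chosen with earlier results of these data known. Some listed genes are not reported here. Promoter windows came from a RefSeq table of GRCm38.p6.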

Additional observations from a re-analysis of the deposited data

Results flagged for a closer look

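Ezh2 moved in opposite directions with passage in the 2 cell types. Passage 11 minus passage 3 was 0.21 in OPCs and -0.33 in oligodendrocytes. Chd7 did the same on its brightest array transcript, at 0.24 in OPCs and -0.58 in oligodendrocytes. Over the 30 transcripts of Chd7 the median was -0.10 in OPCs (11 higher and 19 lower) and -0.32 in oligodendrocytes (3 higher and 27 lower), so the OPC direction depends on the transcript. Each value rests on 1 array per passage and cell type, and the difference between the cell types was not tested.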

How the results depend on the processing

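Replicate number limits every count here. Members called in OPCs against the rosette numbered 2, and 5 with passage as a replicate block, 7 with the arrays of the 2 groups alone, and 1 to 7 when single arrays were left out. In OPCs against EpiSCs they numbered 10, and 21 with the 2 groups alone and 1 to 21 when single arrays were left out. In oligodendrocytes against OPCs the 1 call became 0 with quantile normalisation, without dim genes and with the replicate block, and 0 to 11 when single arrays were left out. Leaving out an array leaves 1 residual degree of freedom, with the lone sample assumed to vary like the other groups. With a 1.5-fold limit, 14 members rather than 9 separated the rosette from EpiSCs (35.9%, against 22.6% of all genes), and 4 rather than 1 separated oligodendrocytes from OPCs at both passages (10.3%, against 5.10%). No difference of a named gene reversed in a called value. Outside the left-out arrays, 590 values for single genes kept their side of the threshold, 20 lost a call and 16 gained one. Over all genes, calls in OPCs against the rosette were 624, 1206 with the block and 2897 with the 2 groups alone; in OPCs against EpiSCs 1397, 2318 and 4154; in oligodendrocytes against OPCs 89, 14 with quantile normalisation and 20 without dim genes. Further settings for the count of 19 members with both oligodendrocyte arrays below both OPC arrays were chosen after seeing the data and gave 19 to 20. The causes of these shifts were not tested.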
